A study of Homo sapiens with 22 samples.

Results

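Periplakin, encoded by PPL, and 4 of its plakin relatives (DSP, PLEC, DST and MACF1) were followed through RNA-seq counts of the human line H1299, which comes from a non-small cell carcinoma of the lung. They are 5 of the 37908 genes in the count table. PPL was chosen by measured values, because its fall with inhibition of the kinase GSK3 differed with BRCA2 status in cells given control siRNA, so the PPL values of those libraries are given as a description, with no test. The relatives were taken by family and not by their values. The study asked how activation of β-catenin, which GSK3 normally marks for degradation, changes transcription in cells with and without BRCA2, a protein needed for homologous recombination.

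Every culture carried an shRNA against BRCA2 that doxycycline (DOX) switches on. BRCA2-proficient cells had no DOX, and BRCA2-deficient cells had 2 µg/mL DOX for 3 days, so DOX itself and loss of BRCA2 cannot be told apart. Each of these received control siRNA or siβ-catenin, an siRNA against CTNNB1, and was left untreated or given the GSK3 inhibitor LY2090314 (GSK3i) at 250 nM for 24 h. The labels mark cells without GSK3i as untreated, while the study's figure legends say that they were given DMSO. The 8 groups hold 3 libraries each, except the BRCA2-proficient groups without GSK3i, which hold 2 (replicates 2 and 3) with either siRNA. The study describes the replicates as independent experiments, while the labels give only a replicate number.

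Plakins are large cytolinker proteins that tie intermediate filaments, actin or microtubules to one another and to junctions at the cell surface. Periplakin and envoplakin, its dimer partner encoded by EVPL, build the scaffold of the cornified envelope in stratified epithelium, and periplakin also binds keratin and vimentin filaments in other cells. Desmoplakin (DSP) anchors filaments at desmosomes, plectin (PLEC) crosslinks filaments at hemidesmosomes and elsewhere, and dystonin (DST) and MACF1 are the giant spectraplakins that join actin to microtubules. MACF1 has also been placed in WNT signalling.

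In GRCh37 coordinates with GENCODE annotation, PPL (ENSG00000118898) lies on chromosome 16 from 4932508 to 5010742 on the minus strand. DSP (ENSG00000096696) lies on chromosome 6 from 7541571 to 7586947 on the plus strand, and DST (ENSG00000151914) on the same chromosome from 56322785 to 56819628 on the minus strand. PLEC (ENSG00000178209) lies on chromosome 8 from 144989321 to 145050902 on the minus strand, and MACF1 (ENSG00000127603) on chromosome 1 from 39546988 to 39952849 on the plus strand. EVPL (ENSG00000167880) lies on chromosome 17 from 74000583 to 74023387 on the minus strand, and was read beside the members; epiplakin (EPPK1) was not analysed here.

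The 22 libraries held between 18938266 and 29280122 counts in all. BRCA2 stood at 513.6 to 1111 normalised counts (counts divided by the size factor of the library) in proficient libraries and at 71.4 to 225.3 in deficient ones, with no overlap. CTNNB1, which encodes β-catenin, stood at 5206 to 8669 with control siRNA and at 976.8 to 2217 with siβ-catenin, also with no overlap. Vimentin (12600 to 35300 normalised counts), KRT18, KRT8 and N-cadherin (CDH2) were high throughout, while the epithelial markers CDH1 (at 0 in 7 libraries, at most 5.9), EPCAM (at most 22.2) and KRT19 (at most 5.77) were at or near 0. The 5 keratinocyte markers in the table summed to 309 to 703 normalised counts, of which KRT10 made up most, and KRT1 was at 0 in 21 libraries. The 5 blood and endothelium markers in the table summed to 8.57 to 38.4. In these bulk libraries, fewer cells of a type and less RNA per cell cannot be told apart.

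The GSK3i labels were checked with 162 rising and 674 falling genes, chosen as changing beyond 1 on the log2 scale with GSK3i in BRCA2-deficient cells under both siRNAs, with the plakins left out. Their score is the mean log2 deviation of the rising genes minus that of the falling genes. It lay between 0.99 and 1.58 in every deficient or control siRNA library given GSK3i and between -2.11 and -1.40 in those without it. The genes were chosen by the labels of the deficient libraries, so the separation of those libraries was built in. Only the labels of the proficient libraries are checked independently. In BRCA2-proficient cells, the library labelled siβ-catenin replicate 2 scored 1.24, within the range of GSK3i-treated libraries. The library labelled GSK3i plus siβ-catenin replicate 2 scored -1.49, within the range of libraries without GSK3i, and the library labelled siβ-catenin replicate 3 lay between the ranges at -0.65. So 2 libraries go against their label and 1 is intermediate. The PPL values that draw on these 3 libraries, and those of the relatives that the results turn on, are given below as labelled and without 1 or more of them.

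PPL was the most variable member. Its group means spanned 22.4-fold, against 1.46-fold for DSP, 1.61-fold for MACF1, 1.75-fold for DST and 1.92-fold for PLEC. The lowest PPL mean, that of proficient GSK3i cells, is among the values that chose PPL, so the choice favoured this span. In BRCA2-proficient cells with control siRNA, PPL stood at 726.8 and 775.7 normalised counts untreated and at 72.21, 71.68 and 65.4 with GSK3i. These groups lie far apart, and the treated libraries rest on 58 to 63 raw counts. In BRCA2-deficient cells with control siRNA, PPL stood at 1247, 1334 and 1072 untreated and at 321.9, 419.1 and 456.8 with GSK3i. Here too the groups are separate, and every deficient library with GSK3i lies above every proficient one.

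With siβ-catenin, PPL in BRCA2-deficient cells stood at 1789, 1993 and 914.8 normalised counts without GSK3i and at 612.2, 1126 and 592.7 with it. PPL was lower with GSK3i in 3 of 3 same-numbered pairs, but the groups overlap, since replicate 2 with GSK3i exceeded replicate 3 without it. In BRCA2-proficient cells, the libraries labelled siβ-catenin held 167.5 and 314.8, and those labelled GSK3i plus siβ-catenin held 186.3, 671.7 and 170.2. The 671.7 and the 167.5 belong to the 2 replicate 2 libraries whose GSK3i-responsive genes go against their labels, so PPL was high in the library scored as without GSK3i and low in the one scored as with it.

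**Figure D1:**
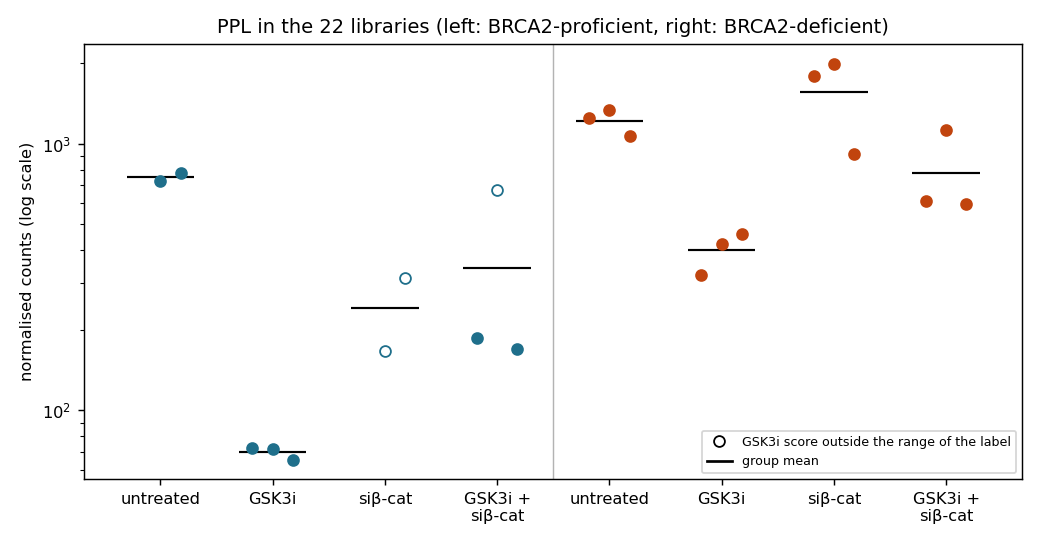
PPL in normalised counts (log axis) in each of the 22 libraries, by group, with BRCA2-proficient groups in teal on the left and BRCA2-deficient groups in orange on the right; lines are group means and open points are the 3 libraries whose GSK3i score lies outside the range of their label. The proficient GSK3i libraries sit between 65.4 and 72.21, below every other library.

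Ordered by group mean, PPL was highest in deficient siβ-catenin cells (1566 ± 573, SD, n = 3), followed by deficient untreated (1218 ± 133), deficient GSK3i plus siβ-catenin (776.8 ± 302), proficient untreated (751.2 ± 34.6, n = 2), deficient GSK3i (399.3 ± 69.6), proficient GSK3i plus siβ-catenin (342.7 ± 285), proficient siβ-catenin (241.1 ± 104, n = 2) and proficient GSK3i (69.76 ± 3.79). Neighbours in this order differed by more than the larger of their SDs at 3 of the 7 steps. Their libraries were fully separate at 2 of these, between proficient untreated and deficient GSK3i and between proficient siβ-catenin and proficient GSK3i. The second of these steps rests on the proficient siβ-catenin libraries, of which replicate 2 goes against its label and replicate 3 is intermediate.

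In the control siRNA libraries that chose it, PPL was 10.9-fold lower with GSK3i in proficient cells (log2 change -3.44 ± 0.20, SE) and 3.05-fold lower in deficient cells (-1.61 ± 0.19). The difference between these changes was 1.82 ± 0.26 on the log2 scale and is the value the choice rests on. Seen from BRCA2, PPL was 1.59-fold higher after depletion in untreated cells (0.67 ± 0.18) and 5.73-fold higher under GSK3i (2.52 ± 0.23). For the 4 relatives the corresponding difference between backgrounds ran from 0.01 to 0.28, and for EVPL it was 0.88 ± 0.23, in the direction of PPL.

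The siβ-catenin libraries did not enter the choice, so PPL could be tested there. In BRCA2-deficient cells PPL fell 2.01-fold with GSK3i (log2 change -1.01 ± 0.29, 95% interval -1.57 to -0.45; DESeq2 Wald test, adjusted p = 0.00362). A gene was called when its adjusted p was below 0.05 and its log2 change beyond 0.5, and 20.1% of the genes tested were called in this comparison. The call was lost without siβ-catenin replicate 2 (adjusted p = 0.0609), without GSK3i plus siβ-catenin replicate 1 (0.212), in a model over all 8 groups (0.0979) and in a test against a change of 0.5 (0.936). It was kept in edgeR (adjusted p = 0.0395) and in the fit with the replicate block (-0.99, adjusted p = 7.15e-09), and the replicate numbers pair these libraries. An exact permutation test of the PPL level over these 6 libraries that does not use the pairing gave p = 0.2, two-sided, where 0.1 is the smallest p it can give.

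Set against its relatives within each of these libraries, PPL was lower with GSK3i in the mean of each ratio. The log2 ratio of PPL to DST differed by -1.04 ± 0.20 and that of PPL to MACF1 by -0.92 ± 0.18, and in each case the 3 treated and 3 other libraries were separate (exact permutation p = 0.1, two-sided, the smallest possible). The ratio to EVPL differed by -1.67 ± 0.56 and was also separate (exact permutation p = 0.1). The ratios to DSP (-1.02 ± 0.42, exact permutation p = 0.2) and to PLEC (-0.68 ± 0.42, exact permutation p = 0.3) overlapped between the groups.

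In BRCA2-proficient siβ-catenin libraries as labelled, the PPL change with GSK3i was 0.52 ± 0.58 (DESeq2 adjusted p = 1.0), where 0.0529% of genes were called. Without both replicate 2 libraries it was -0.81 (adjusted p = 0.106), which leaves 1 library without GSK3i, itself the one with an intermediate score, and assumes that it varies like the others. The difference between the responses of deficient and proficient cells under siβ-catenin was -1.52 ± 0.92 (adjusted p = 0.394; 0.439% of genes called) as labelled and -0.20 (adjusted p = 0.999) without those libraries. The 95% interval of the first, -3.33 to 0.29, is wide.

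Loss of BRCA2 was tested for PPL under siβ-catenin. Without GSK3i, PPL was 6.38-fold higher in deficient cells (2.67 ± 0.35, DESeq2 adjusted p = 1.99e-12) in a comparison that called 27.4% of genes. The proficient side of this comparison consists of replicate 2, which goes against its label, and the intermediate replicate 3, and the value was 2.28 (adjusted p = 0.0042) without replicate 2 and 3.19 (2.01e-05) without replicate 3, each with a lone proficient library assumed to vary like the deficient ones. With GSK3i, PPL was 1.17 ± 0.70 higher on the log2 scale as labelled and not called (adjusted p = 0.354; 7.74% of genes called). Without the proficient library whose score goes against its label it was 2.11 higher (adjusted p = 5.52e-11), and a fit with the replicate number as a block gave 1.41 (adjusted p = 1.68e-06). The deficient libraries of that comparison (592.7 to 1126) lie above the 2 proficient libraries whose scores match their label (186.3 and 170.2).

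**Figure D2:**
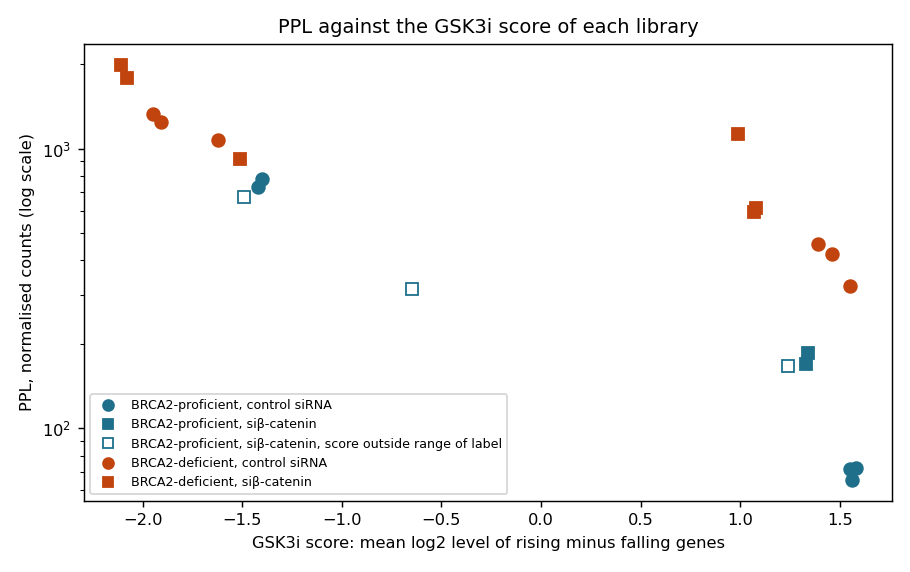
PPL in normalised counts (log axis) against the GSK3i score of each of the 22 libraries (mean log2 deviation of 162 rising minus 674 falling genes), with circles for control siRNA, squares for siβ-catenin, teal for BRCA2-proficient and orange for BRCA2-deficient cells. The open squares at -1.49 and 1.24, labelled with and without GSK3i, hold 671.7 and 167.5 PPL counts, beside libraries of the other label.

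The values of siβ-catenin itself on PPL share control siRNA libraries with the choice and carry no test. Under GSK3i PPL was higher with siβ-catenin, by 2.33 ± 0.46 on the log2 scale in proficient cells (1.37 without the library labelled GSK3i plus siβ-catenin replicate 2) and by 0.95 ± 0.29 in deficient cells. Without GSK3i the difference with siβ-catenin was -1.65 ± 0.31 in proficient cells, where siβ-catenin replicate 2 goes against its label and replicate 3 is intermediate (-1.25 without replicate 2 and -2.17 without replicate 3), and 0.37 ± 0.25 in deficient cells.

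A neighbouring gene overlaps the 5′ end of PPL. SEC14L5, on the opposite strand from 5008331 to 5069158, had 16.8% as many counts as PPL over the table. The libraries were made strand-specific, but the strand setting of the counting is not given in the sources used here, so reads of the shared stretch cannot be told apart. SEC14L5 stood at 62.58 to 96.97 normalised counts in the proficient GSK3i libraries, as high as PPL there, and its change with GSK3i was -0.23 in proficient and -0.22 in deficient control siRNA cells and -0.27 in deficient siβ-catenin cells, with no call. Over the 22 libraries the log2 levels of SEC14L5 and PPL had r = 0.83, and its part in the PPL values was not tested.

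Levels were compared between genes per kilobase of the union of exons, in normalised counts. PLEC was the highest member (median 1380, range over libraries 978 to 2140). DST (190, 120 to 380), MACF1 (172, 106 to 292) and DSP (115, 76.1 to 144) followed. PPL (78.3) spanned the widest range relative to its level, from 8.49 to 259, which its choice favoured. EVPL stood at 66.9 (38.3 to 87.0). By the longest transcript instead, MACF1 (498) came above DST (371), so the order of the spectraplakins depends on the length used.

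No relative was called with GSK3i. DESeq2 called 0 of the 4 relatives in proficient control siRNA cells, where 26.1% of genes were called, and 0 of 4 in deficient control siRNA cells, where 25.4% were called. At an unadjusted p under 0.05 the counts were 1 (PLEC) and 0, and edgeR called 0 in each. The log2 changes of the relatives ran from -0.34 to 0.08 in proficient and from -0.22 to 0.28 in deficient cells, with medians of 0.01 and 0.15 beside -0.00 and 0.02 over all genes. For 4 genes, 0 calls lie near the shares over all genes. The 95% intervals reached -0.63 for PLEC in proficient and 0.87 for DST in deficient cells, so the missing calls do not show that the relatives stayed unchanged. Under siβ-catenin GSK3i called 0 of 4 by both tools in proficient cells, where 0.0529% of genes were called, and in deficient cells, where 20.1% were, with 1 each at an unadjusted p under 0.05 (DST in proficient, PLEC in deficient cells). With so few genes called, the proficient count says nothing about the relatives.

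**Figure D3:**
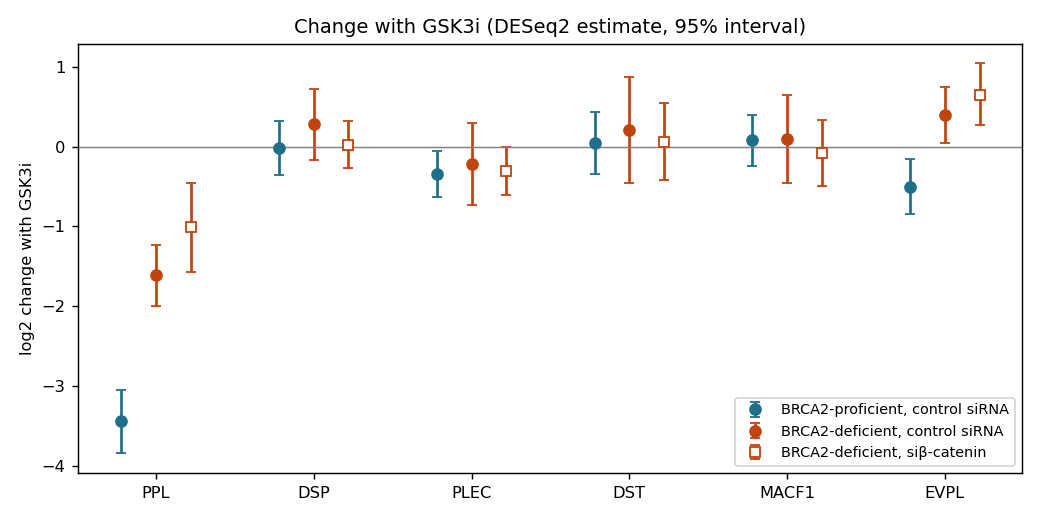
Log2 change with GSK3i (DESeq2 estimate with its 95% interval) of PPL, 4 relatives and EVPL, in BRCA2-proficient and -deficient cells with control siRNA (filled circles) and in deficient cells with siβ-catenin (open squares); the control siRNA values of PPL chose it. PPL lies at -3.44, -1.61 and -1.01, the 4 relatives between -0.34 and 0.28, and EVPL at -0.50, 0.40 and 0.65.

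DSP, the desmosomal plakin, had the narrowest span of group means among the members (1.46-fold). In proficient control siRNA cells it stood at 1177 and 1748 normalised counts untreated and at 1396, 1444 and 1550 with GSK3i, which falls between the untreated libraries. The change was -0.02 ± 0.17 (DESeq2 adjusted p = 0.958), and in deficient cells 0.28 ± 0.23 (adjusted p = 0.395). The widest DSP change was with siβ-catenin in deficient untreated cells, from 1090, 1037 and 1541 to 1966, 1738 and 1582. These groups are separate, yet the change of 0.53 ± 0.20 was not called (adjusted p = 0.139). In this comparison DESeq2 called 0 of the 4 relatives beside 2.03% of genes, with 1 at an unadjusted p under 0.05 and 0 in edgeR.

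PLEC, which links filaments to the integrin β4 of hemidesmosomes, was called with loss of BRCA2 under siβ-catenin. It stood at 18998 and 16614 normalised counts in proficient and at 36310, 32492 and 33580 in deficient cells, with no overlap. The change was 0.92 ± 0.15 (DESeq2 adjusted p = 5.47e-08), and PLEC was the 1 relative of 4 called there, against 27.4% of genes. The proficient libraries are again replicate 2, which goes against its label, and the intermediate replicate 3, and PLEC was called without either (1.0 without replicate 2, adjusted p = 2.2e-06, and 0.81 without replicate 3, adjusted p = 0.00012). With GSK3i added, PLEC stood at 19255, 17670 and 21030 in proficient and at 22471, 31056 and 29091 in deficient cells, which is separate as well, at 0.51 ± 0.18 (adjusted p = 0.0529, not called). Without the proficient replicate 2, which goes against its label, it was 0.44 (adjusted p = 0.0969). Untreated (0.08 ± 0.22, adjusted p = 0.878) and under GSK3i alone (0.22 ± 0.24, adjusted p = 0.717) the PLEC libraries of the BRCA2 backgrounds overlapped. DESeq2 called 0 of 4 relatives for BRCA2 depletion in untreated cells (6.92% of genes called), under GSK3i (6.81%) and under GSK3i plus siβ-catenin, with 0, 0 and 1 at an unadjusted p under 0.05 and 0 in edgeR each time.

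PLEC was the member most like PPL in its course over libraries, with r = 0.62 between their log2 levels (22 libraries). With siβ-catenin in untreated proficient cells, PLEC stood lower, at 18998 and 16614 against 23834 and 30427, but was not called (-0.62 ± 0.20, DESeq2 adjusted p = 0.0518). That comparison called 0 of the 4 relatives beside 2.85% of genes, with 1 at an unadjusted p under 0.05 and 0 in edgeR. With TMM factors PLEC was called, at an adjusted p of 0.0488, and it was also called without siβ-catenin replicate 2 (-0.70, adjusted p = 0.00261) or replicate 3 (-0.52, adjusted p = 0.0179), each with a lone siβ-catenin library assumed to vary like the others.

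DST and MACF1, the spectraplakins, moved together. Their log2 levels had r = 0.90 over the 22 libraries, and those of PPL had r = -0.03 with DST and -0.21 with MACF1. In deficient cells with GSK3i, DST stood at 7314, 9806 and 18310 and MACF1 at 10864, 10739 and 20577 normalised counts, with replicate 3 highest for each. The 205 other genes with a transcript of at least 12 kb and a mean of at least 500 normalised counts tracked this spread, since their median deviation per library had r = 0.75 with DST, 0.70 with MACF1 and -0.20 with PPL. The part of transcript length in the DST and MACF1 values was not tested.

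Under GSK3i, siβ-catenin was the comparison in which a spectraplakin was called. MACF1 stood at 12290, 17609 and 17024 normalised counts with control siRNA and at 10062, 11658 and 9123 with siβ-catenin in proficient cells, with no overlap. MACF1 fell (-0.58 ± 0.18, DESeq2 adjusted p = 0.034) and was the 1 relative of 4 called, beside 5.1% of genes. DST stood at 6989, 11942 and 12001 against 6767, 7177 and 6349, which overlap, and its -0.58 ± 0.21 was not called (adjusted p = 0.0815), although the fit with the replicate block called it at -0.54 (adjusted p = 0.0266). Without the library labelled GSK3i plus siβ-catenin replicate 2, MACF1 was -0.69 (adjusted p = 0.00176) and DST -0.64 (0.0415). The MACF1 call was lost in edgeR (adjusted p = 0.122), in the joint model of the 8 groups (0.101), and on leaving out GSK3i replicate 2 (0.331), GSK3i replicate 3 (0.201), GSK3i plus siβ-catenin replicate 1 (0.122) or replicate 3 (0.146).

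In deficient cells under GSK3i the siβ-catenin values were alike in size but spread more. MACF1 was -0.54 ± 0.29 (DESeq2 adjusted p = 0.313) and DST -0.58 ± 0.35 (adjusted p = 0.406), and the test called 0 of 4 relatives beside 5.52% of genes, with 0 at an unadjusted p under 0.05 and 0 in edgeR. Over left-out libraries MACF1 ran from -0.73 to -0.15 and DST from -0.91 to -0.11. In replicate 2 both genes were higher with siβ-catenin (MACF1 10739 to 12181, DST 9806 to 11151), and in replicates 1 and 3 both were lower. The difference between the backgrounds was 0.06 ± 0.37 for MACF1 and 0.03 ± 0.46 for DST (adjusted p = 1.0 each; 0.0057% of genes called). The 95% intervals, -0.66 to 0.79 and -0.87 to 0.92, are too wide to show that the backgrounds respond alike.

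**Figure D4:**
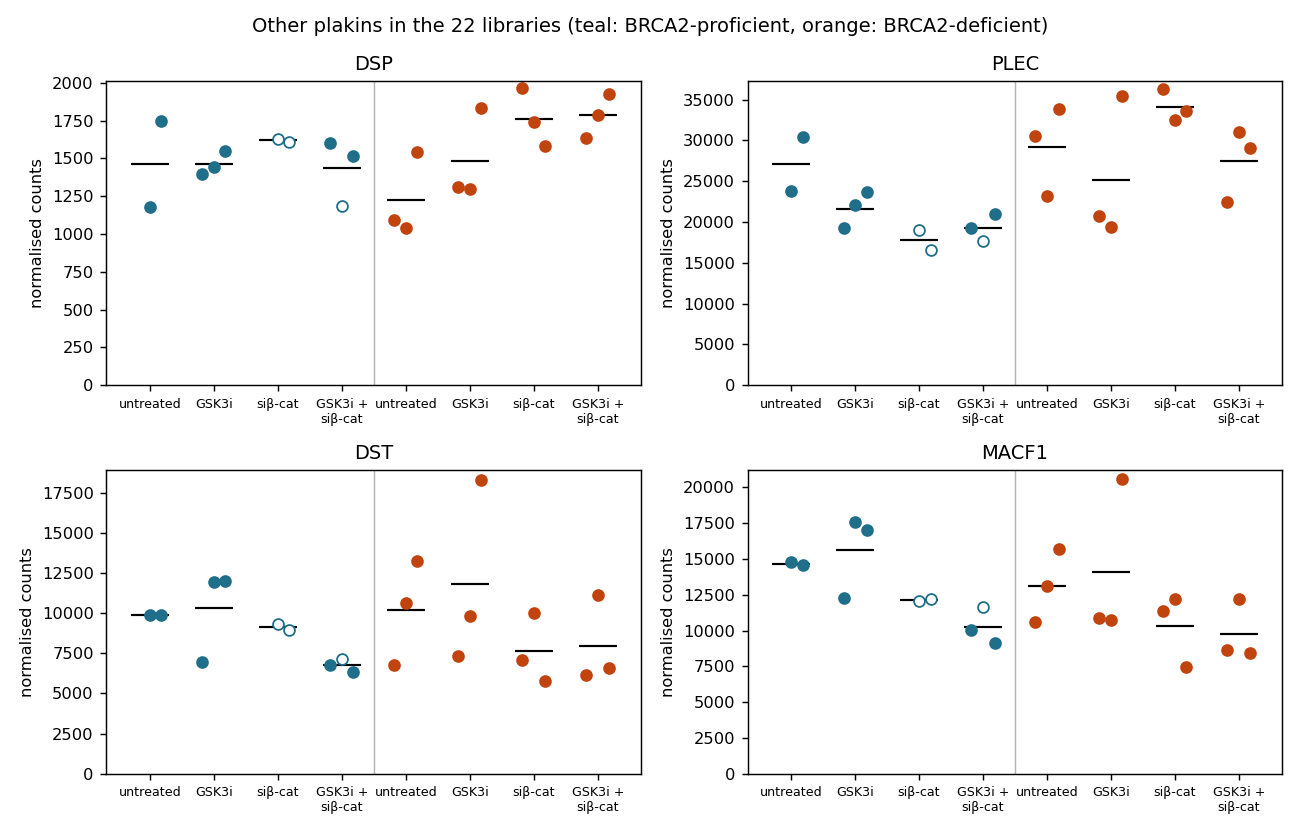
DSP, PLEC, DST and MACF1 in normalised counts (linear axes from 0) in each of the 22 libraries, by group, with lines at group means and open points for the 3 libraries whose GSK3i score lies outside the range of their label. Group means span 1.46-fold for DSP to 1.92-fold for PLEC, and DST and MACF1 share their highest library, deficient GSK3i replicate 3 (18310 and 20577).

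No interaction called a relative. For BRCA2 with GSK3i under control siRNA, which chose PPL, 0.0345% of genes were called, and the relatives ran from 0.01 to 0.28 on the log2 scale. For GSK3i with siβ-catenin 7.63% of genes were called in proficient cells, where the terms of the relatives ran from -0.47 to 0.47, and 0.486% in deficient cells, where they ran from -0.27 to -0.10. As labelled, in the 5 interactions DESeq2 and edgeR each called 0 of 4, and the count at an unadjusted p under 0.05 was 1 (PLEC, GSK3i with siβ-catenin in proficient cells) and otherwise 0. DESeq2 also called 0 in each interaction with siβ-catenin libraries when 1 or both of the replicate 2 libraries, or the intermediate replicate 3, were left out.

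The CpG-rich promoter windows of DST and MACF1 are shown as a description, and a link to the shared course of these genes was not tested. RefSeq (GRCh38.p14) windows from 250 bases before to 50 after a start matched 3 members (DSP, DST and MACF1, 7 windows). The windows printed lie at chr6:56954781-56955080 on the minus strand (DST) and chr1:39408823-39409122 on the plus strand (MACF1), read 5′ to 3′, with capitals for the GC box GGGCGG on either strand and for the E-box CACGTG.
DST: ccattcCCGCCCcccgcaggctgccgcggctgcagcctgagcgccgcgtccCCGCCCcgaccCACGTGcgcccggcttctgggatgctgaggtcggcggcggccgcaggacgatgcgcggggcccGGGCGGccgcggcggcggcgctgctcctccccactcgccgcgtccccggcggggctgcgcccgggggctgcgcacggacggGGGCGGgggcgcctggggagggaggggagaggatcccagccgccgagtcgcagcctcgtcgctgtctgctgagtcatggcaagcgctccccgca
MACF1: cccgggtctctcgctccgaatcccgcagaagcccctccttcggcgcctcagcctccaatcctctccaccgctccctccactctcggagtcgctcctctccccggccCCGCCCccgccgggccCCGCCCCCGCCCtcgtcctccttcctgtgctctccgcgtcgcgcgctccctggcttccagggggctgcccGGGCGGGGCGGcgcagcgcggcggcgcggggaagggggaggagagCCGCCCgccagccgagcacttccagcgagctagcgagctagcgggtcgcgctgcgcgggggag
GC made up 80.0% of the DST and 77.0% of the MACF1 window, against a median of 58.7% over 35116 windows. The DST window held 4 GC boxes and 1 E-box, and the MACF1 window 6 GC boxes, counted with overlaps. A GC box is in 45.0% of all windows and the E-box in 7.26%. The DSP window at chr6:7541421-7541720 on the plus strand (77.0% GC) held 8 GC boxes. The letters ATCAAAG and TTCAAAG, forms of the TCF/LEF motif through which β-catenin acts, and GTAAACA, a FOXO motif, were not found on either strand of the 7 windows and are in 2.62%, 4.43% and 3.42% of all windows. The GC box is the 1 motif searched that both printed windows hold, but these windows were picked as CpG-rich, which favours it. The other DST and MACF1 windows (39.3% to 49.0% GC) held no GC box.

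EVPL, the partner of periplakin in the cornified envelope, did not follow PPL (r = 0.02 over 22 libraries). In deficient siβ-catenin cells EVPL stood at 379.0, 282.3 and 438.6 normalised counts without and at 556.2, 640.9 and 527.2 with GSK3i, with no overlap. It rose there (0.65 ± 0.20, DESeq2 adjusted p = 0.00645), in the comparison in which PPL fell. In proficient control siRNA cells EVPL stood at 630.4 and 518.7 untreated and at 434.4, 434.6 and 363.1 with GSK3i (-0.50 ± 0.18, adjusted p = 0.0188, not past the size limit). EVPL was higher in deficient than in proficient cells under GSK3i (0.51 ± 0.16, adjusted p = 0.0171), and the difference between its GSK3i responses, 0.88 ± 0.23, was not called (adjusted p = 0.164).

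The genes that work with plakins were read from lists of junction, filament and linker genes. Their median log2 changes with GSK3i in proficient and deficient control siRNA cells were 0.34 and -0.07 for cornified envelope genes, 0.35 and 0.47 for desmosome genes, -0.05 and -0.15 for hemidesmosome genes, -0.24 and -0.17 for intermediate filament genes, -0.19 and -0.04 for microtubule genes and -0.39 and -0.19 for spectrin repeat genes, beside -0.00 and 0.02 over all genes. Of the other cornified envelope genes, 5 of 15 were tested. GSK3i called 1 (TGM5, a transglutaminase, 0.89) in proficient and 0 in deficient control siRNA cells, beside 26.1% and 25.4% of all genes. In deficient siβ-catenin cells it called 1 (ANXA1, -0.60), beside 20.1% of all genes. For 5 genes these counts lie near the shares over all genes.

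Among desmosome genes, GSK3i called 4 of 8 tested in proficient and 3 of 7 in deficient control siRNA cells, beside 26.1% and 25.4% of all genes. JUP is the plakoglobin that binds DSP and is a close relative of β-catenin. With GSK3i it fell in proficient (-1.63 ± 0.26, DESeq2 adjusted p = 1.49e-08) and deficient control siRNA cells (-1.37 ± 0.18, adjusted p = 6.96e-12). It also fell with GSK3i in deficient siβ-catenin cells (-1.69 ± 0.17, DESeq2 adjusted p = 2e-21). DSC2, a desmosomal cadherin, rose in both control siRNA backgrounds (0.72 and 1.10). PKP3 fell in proficient cells (-0.70) and PKP4 rose in deficient cells (0.52). DSG4 was called as rising in proficient cells from 0 raw counts in each untreated library to 17, 16 and 16.

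Of 7 hemidesmosome genes, GSK3i called 2 in proficient and 2 in deficient control siRNA cells, all lower, and 2 in deficient siβ-catenin cells, shares near the 26.1%, 25.4% and 20.1% of all genes. ITGB4, the integrin that binds plectin, fell in these, with log2 changes of -1.99 ± 0.14, -1.56 ± 0.17 and -1.48 ± 0.28 (DESeq2 adjusted p = 1.14e-40, 8.35e-17 and 3.46e-06). PLEC itself was not called beside it. The laminin chain LAMA3 fell in proficient control siRNA cells (-0.55), and the laminin chain LAMB3 rose in deficient siβ-catenin cells (0.56).

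Of 15 intermediate filament genes tested, 3 rose and 4 fell with GSK3i in proficient control siRNA cells, and 4 rose and 4 fell in deficient ones, beside 26.1% and 25.4% of all genes called. Among the simple keratins, KRT8 fell (-1.15 and -1.31) and KRT7 fell (-1.44 and -1.39). KRT18, the partner of KRT8, was -0.46 in proficient cells, which did not pass the size limit, and fell in deficient ones (-0.76). The neurofilament gene NEFM rose (1.29 and 1.24). In deficient siβ-catenin cells 1 rose (NEFM, 0.99) and 3 fell (KRT7 -1.23, SYNM -0.97 and KRT8 -0.84), beside 20.1% of all genes called.

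Of 12 microtubule plus end and GAS2 family genes, which share partners or a domain with the spectraplakins, 3 fell in proficient cells (CLIP2 -1.06, GAS2L1 -0.77 and CAMSAP3 -0.89), a share near the 26.1% of all genes. In deficient control siRNA cells 2 fell (GAS2L1 -0.77 and CLIP2 -0.56) and CAMSAP1 rose (0.74), beside 25.4% of all genes. Of 12 genes of other spectrin repeat linkers, 4 fell in proficient cells (SYNE1 -0.81, SPTBN4 -1.15, SPTB -0.65 and SYNE3 -0.52), 2 fell in deficient control siRNA cells (SYNE1 -0.97 and SPTBN4 -0.83), and none rose in either, beside the same shares of all genes.

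Among 13152 genes with a mean of at least 50 normalised counts, those whose log2 levels were among the most like PPL over the 22 libraries were ABCC6 (r = 0.969), a membrane transporter, EPS8L2 (0.966), BCAM (0.965), a laminin receptor, and GPER1 (0.965), a membrane oestrogen receptor. Over the 8 group means their r with PPL was 0.976 to 0.985. ABCC6 has near-identical pseudogenes, so its counts are uncertain. The most opposite were MTIF2 (-0.961), a mitochondrial translation factor, RNF138 (-0.958) and LINC00665 (-0.953). The points share treatments, size factors and the 3 libraries whose GSK3i score lies outside the range of their label.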

How the data were processed

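RNA-seq of 22 H1299 libraries was available as gene counts. Per the labels and the submitters' processing notes, the authors made poly(A), strand-specific libraries, aligned reads with HISAT2 (2.0.4) to GRCh37, removed duplicates with Picard (1.9.2) and counted with featureCounts (1.5.0), and deposited raw counts; the study's reporting summary lists other versions of these tools, and the annotation release and strand setting are not given in the sources used here. Removal of duplicates can lower the counts of highly expressed genes. The members, gene lists and tests were chosen with earlier results of these data known.

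DESeq2 (1.42.0, R 4.3.3) was fitted on the whole table, with a two-sided Wald test, a separate fit per comparison and Benjamini-Hochberg adjustment. The adjustment ran over the genes kept by the default independent filtering of DESeq2. Shares called are of all genes that entered the fit. Genes with fewer than 10 counts in more than 3 libraries of a fit were left out, and interactions needed 10 counts in 3 libraries. Fits of only 3 libraries, reached by leaving libraries out, cannot lose a gene by the first rule. For GSK3i in proficient siβ-catenin cells, 29308 genes were tested without both replicate 2 libraries and 17010 with them. Called genes had an adjusted p below 0.05 and a log2 change beyond 0.5. Levels are counts divided by size factors over the 22 libraries, and log2 levels add 1. Named were the members, EVPL, BRCA2 and CTNNB1, at most 4 called genes of lowest adjusted p per list and comparison, and the 5 most and 3 least similar to PPL. Some genes that this rule names are not reported here. Scripts were tested on simulated data.

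Alternatives were edgeR (4.0.16) quasi-likelihood with TMM, TMM factors in DESeq2, no count filter, a test against a log2 change of 0.5, a replicate block, a model over all groups and leaving out each library; leaving out both replicate 2 libraries was chosen after seeing the data. Replicate numbers come from the titles. Deviations from group means of same-numbered libraries had r from -0.42 to 0.84, over 0.1 in 25 of 31 pairs. The numbers were taken to pair the samples where a comparison had at least 3 same-numbered pairs, all with r over 0.1. That held in 7 of 12 comparisons. The others had only 2 same-numbered pairs and could not meet this rule, so pairing in them was left undecided.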

Additional observations from a re-analysis of the deposited data

Results flagged for a closer look

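For PPL, the change with GSK3i in BRCA2-proficient cells differed between siβ-catenin and control siRNA by 3.96 ± 0.92 on the log2 scale, the difference between 0.52 and -3.44. It is listed because the response to GSK3i differed between the siRNA groups. Control siRNA libraries that chose PPL enter it, so it is a description, and it draws on 2 siβ-catenin libraries that go against their GSK3i label and 1 that is intermediate. It was 2.63 without both replicate 2 libraries, and 2.63 to 4.50 over the alternatives run. In BRCA2-deficient cells, whose labels the score cannot check independently, the same difference was 0.59 ± 0.42.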

How the results depend on the processing

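The fall of PPL with GSK3i in deficient siβ-catenin cells kept its direction under every alternative run (-1.36 to -0.80 over left-out libraries), but its call was lost against 0.5 (-1.01, adjusted p = 0.936), in the model over all groups (-1.01, 0.0979) and without 2 of the 6 libraries. In proficient siβ-catenin cells the sign of PPL turned with the libraries used (-0.44 to 1.04 over left-out libraries, -0.81 without both replicate 2 libraries). For BRCA2 depletion under GSK3i plus siβ-catenin, PPL was called with the replicate block (1.41) and ran from 0.81 to 2.11 over left-out libraries. The cause was not tested.

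The number of the 4 relatives called moved for siβ-catenin under GSK3i in proficient cells from 1 to 0 in edgeR, against 0.5 and in the model over all groups, to 2 with the replicate block, and between 0 and 2 over left-out libraries. It was 1 with TMM factors for siβ-catenin in untreated proficient cells (0 to 1 over left-out libraries), and 0 against 0.5 for BRCA2 depletion under siβ-catenin (1 to 2). For siβ-catenin in untreated deficient cells, BRCA2 depletion under GSK3i plus siβ-catenin, and the GSK3i by siβ-catenin interaction in proficient cells it ran from 0 to 1. The block changed no other call of a relative or tested PPL value.

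Uncalled relatives crossed 0 when libraries were left out. With GSK3i in proficient control siRNA cells, DSP ran from -0.27 to 0.30 (0.00 with no filter, 0.04 with the block), DST from -0.07 to 0.27 and MACF1 from -0.01 to 0.23; in deficient ones, DST from -0.25 to 0.46 and MACF1 from -0.28 to 0.27; with siβ-catenin, DSP from -0.05 to 0.10, DST from -0.24 to 0.31 and MACF1 from -0.27 to 0.05. With siβ-catenin, DSP ran from -0.09 to 0.11 under GSK3i and from -0.12 to 0.46 without it in proficient cells, and PLEC from -0.04 to 0.46 under GSK3i in deficient cells.

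Counts over all genes moved by over 1.5 times in 13 of 17 comparisons with edgeR, 17 against 0.5, 8 with the replicate block and 7 in the model over all groups. For GSK3i in deficient siβ-catenin cells they were 3534, 3307 in edgeR and 463 against 0.5. Between 58 and 63 raw counts limit PPL in proficient GSK3i libraries.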
